A study of Homo sapiens with 12 samples.

Results

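The genes examined here are 10 components of the circadian clock: NPAS2, PER1, PER2, PER3, CRY1, CRY2, NR1D1, NR1D2, BHLHE40 and DBP. They were taken as the rows of the count table whose Ensembl identifier maps to these symbols, which gave 10 rows of 60710, and all 10 were among the 16366 genes with enough counts to be tested. RNA came from SH-SY5Y, a human neuroblastoma line with sympathetic neuron features. Each of the 4 groups held 3 libraries. One group received HPPE, a compound whose name the labels do not spell out, and the others zinc protoporphyrin, tin protoporphyrin or only DMSO, the solvent in which all 3 compounds were dissolved. Compounds were used at 5 µM and cells were lysed after 5 h. All cells came from this single line, and the labels do not say whether replicates were separate cultures, so p-values measure the spread between these libraries, which may be technical. No step to set the cells to a common clock phase is mentioned in the labels' protocols, and there is a single time point, so levels are means over whatever phases the cells held.

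The circadian clock of mammalian cells is a transcriptional feedback loop. A dimer of BMAL1 with CLOCK or its paralog NPAS2 binds E-box sequences and switches on the PER and CRY genes, whose proteins return to the nucleus and inhibit that dimer. In an added loop the same dimer drives the nuclear receptors NR1D1 and NR1D2 (REV-ERB alpha and beta), which repress the BMAL1 gene in competition with the ROR receptors, and BHLHE40 and DBP carry further repression and output. Heme is a ligand of NR1D1 and NR1D2 and has been described to bind NPAS2 and PER2, and zinc and tin protoporphyrin carry the heme ring system with another metal in place of iron.

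Depth differed between libraries, from 1337028 to 9145399 counts, with DMSO replicate 3, HPPE replicate 3 and zinc protoporphyrin replicate 1 the shallowest. Levels are counts per 1000000 counts of a library (CPM) after TMM scaling, and 3 counts, taken as the limit of detection, equal 0.337 to 2.26 CPM. These limits and the intervals of single libraries cover counting error only. Libraries of one group also differed along a common axis, which held 52.7% of the variance within groups. A library's deviation from the gene means correlated with the length of each gene's longest transcript at -0.54 to 0.57 (Spearman, over genes, which are not independent). Of 11 markers of noradrenergic neuroblastoma, 10 were expressed, with DBH, which makes noradrenaline, at 318 to 352 CPM. TH, the defining enzyme of catecholamine synthesis, was at 0 to 0.25 CPM. Of 8 markers of the mesenchymal cell type that neuroblastoma lines can hold, 7 were expressed and the defining factor PRRX1 was at 0 to 0.125 CPM.

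NPAS2 was the one clock gene of the 10 that was called. It rose with zinc protoporphyrin and with tin protoporphyrin, by 1.95-fold and 1.90-fold, while with HPPE it lay between the control and the metal protoporphyrins and was not called. A gene was called when its adjusted p (edgeR quasi-likelihood test, Benjamini-Hochberg adjustment over all genes tested) was under 0.05. In a test of any difference among the 4 groups, 1 of the 10 clock genes was called, NPAS2 (adjusted p = 0.0172), against 7.18% of all genes tested. The other 9 genes had adjusted p-values of 0.112 or more in that test. Of 22 alternative settings 19 called NPAS2 (adjusted p from 5.44e-05 to 0.0905), and the call was lost without DMSO replicate 2, without HPPE replicate 2 and with the replicate number as a term. NR1D2 was called in 4 of the 22 (adjusted p from 1.38e-05 to 0.304).

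**Figure D1:**
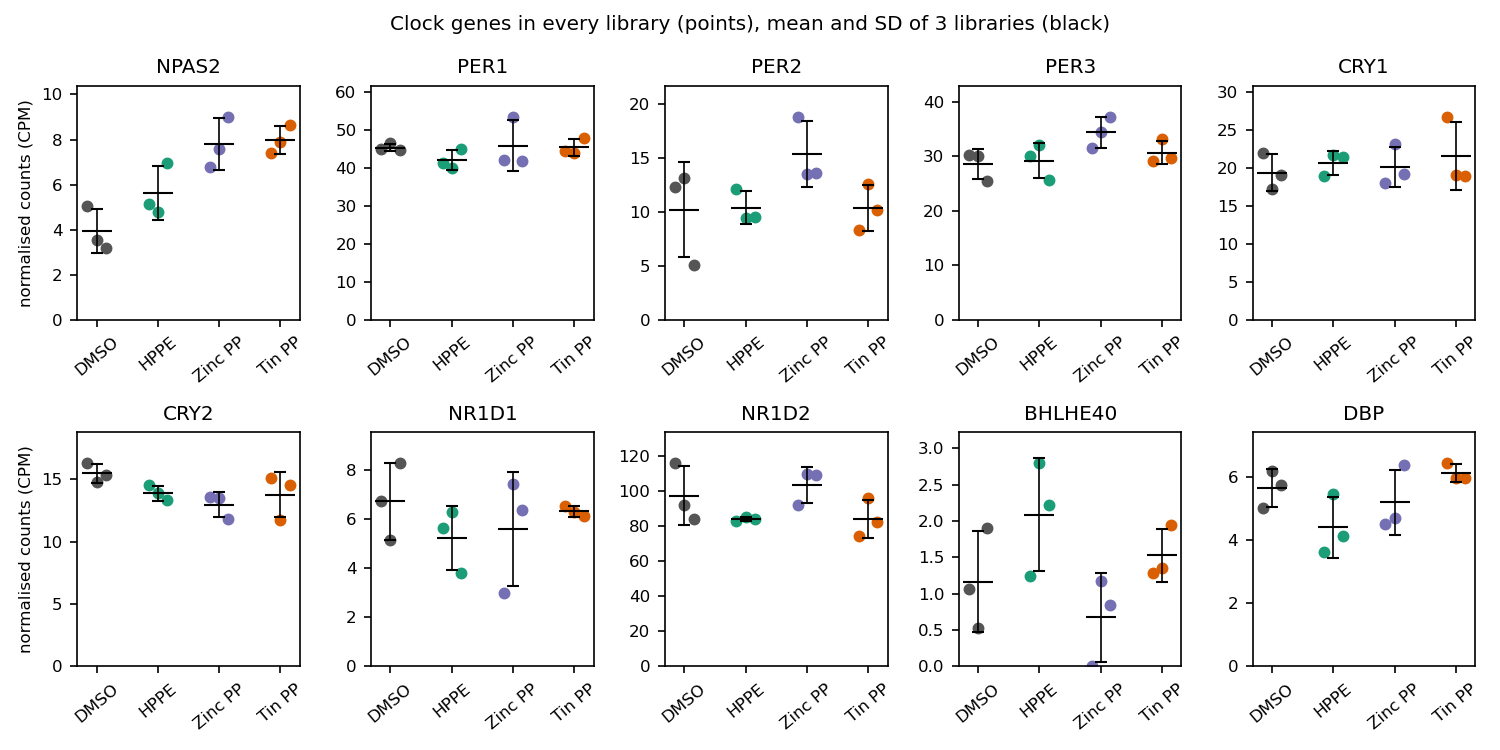
Normalised counts (CPM, vertical axes starting at 0) of the 10 clock genes in each library, by group; points are libraries, and black bars are the mean and SD of 3 libraries (PP, protoporphyrin). The NPAS2 points of zinc and tin protoporphyrin, 6.78 to 9.02 CPM, all lie above the DMSO points, 3.19 to 5.03 CPM.

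The order of the levels was set by length. Each CPM value was divided by the length of the gene's principal GENCODE 29 transcript, although the cells may make another isoform. In the DMSO control NR1D2 stood highest at 18.5 ± 3.15 CPM per kb (SD, n = 3), followed by PER1 at 9.65 ± 0.199, CRY1 at 5.94 ± 0.738, PER3 at 4.61 ± 0.429 and CRY2 at 3.68 ± 0.179 CPM per kb. The ranges of these 5 genes over the control libraries did not overlap those of their neighbours in the order. DBP (2.54 ± 0.266), NR1D1 (2.43 ± 0.568), PER2 (1.59 ± 0.688) and NPAS2 (0.98 ± 0.242 CPM per kb) came next. Within these 4 genes DBP overlapped NR1D1, NR1D1 overlapped PER2 and PER2 overlapped NPAS2, so the order of those neighbours was not resolved, whereas DBP and NR1D1 lay above NPAS2 in every library. BHLHE40 was lowest at 0.336 ± 0.201 CPM per kb and overlapped none of the others. By mean level, the first 5 places and the last place were held by these genes in this order with each compound. With zinc protoporphyrin, however, CRY1 overlapped PER3 and CRY2 overlapped PER2, and with tin protoporphyrin CRY2 overlapped DBP. The summed level of the 10 genes was 234.0 ± 23.7 CPM in the control, 217.8 ± 3.45 with HPPE, 251.6 ± 19.5 with zinc and 228.1 ± 8.98 CPM with tin protoporphyrin, and every treated group overlapped the control.

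**Figure D2:**
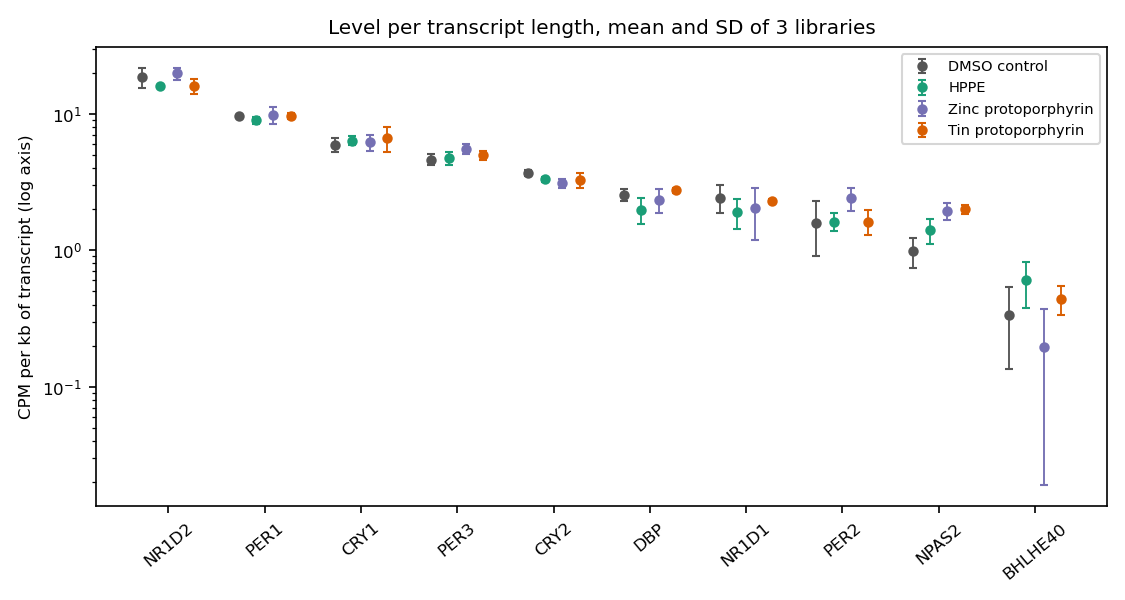
Mean level per transcript length (CPM per kb, log axis) of each clock gene in the 4 groups, with SD over 3 libraries, genes ordered by the control mean. NR1D2 stands highest and BHLHE40 lowest in every group, and NPAS2 moves up from 0.98 CPM per kb in the control to 1.95 with zinc and 1.99 with tin protoporphyrin.

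NPAS2, the activator that can take the place of CLOCK beside BMAL1, is encoded on chromosome 2 from 100820152 to 100996829 (GRCh38, plus strand, ENSG00000170485.17). In the DMSO control it stood at 5.03, 3.56 and 3.19 CPM in replicates 1 to 3. With zinc protoporphyrin it stood at 6.78, 7.59 and 9.02 CPM and with tin protoporphyrin at 7.38, 7.87 and 8.63 CPM. All 6 of these libraries lay above all 3 control libraries. With HPPE the values were 5.13, 4.78 and 6.97 CPM, and replicate 2 lay below the highest control. Precision was limited by few counts: NPAS2 had 5 counts in DMSO replicate 3 (exact Poisson 95% interval 1.04 to 7.45 CPM) and 9 in zinc protoporphyrin replicate 1 (3.1 to 12.9 CPM), and 22 to 75 in the other libraries. The log2 fold change against the control was 0.96 ± 0.22 (SE, 95% interval 0.51 to 1.42, adjusted p = 0.0271) with zinc protoporphyrin and 0.93 ± 0.21 (0.50 to 1.36, adjusted p = 0.0218) with tin protoporphyrin. With HPPE it was 0.36 ± 0.23 (-0.12 to 0.83, adjusted p = 0.442). These comparisons share the 3 control libraries. They are fits that weight libraries by depth, so a fold change need not equal the ratio of mean CPM.

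The direction and size of the NPAS2 changes held throughout, whereas the calls did not. Over 23 alternative settings the log2 fold change ran from 0.81 to 1.22 with zinc and from 0.78 to 1.18 with tin protoporphyrin, and 17 and 19 of the settings kept the call (adjusted p from 0.000278 to 0.227 and from 0.000528 to 0.211). The zinc protoporphyrin call was lost without DMSO replicate 2 (adjusted p = 0.194), DMSO replicate 3 (0.0502), zinc protoporphyrin replicate 2 (0.0569) or zinc protoporphyrin replicate 3 (0.227). The tin protoporphyrin call was lost without DMSO replicate 2 (0.211) or tin protoporphyrin replicate 3 (0.0997). DESeq2 also did not call NPAS2 with zinc protoporphyrin (0.0523), nor did the fit of the compared groups alone with tin protoporphyrin (0.0979), and both calls were lost with the replicate number as a term. The zinc protoporphyrin libraries all leaned toward long transcripts (correlations of 0.22 to 0.57), whereas the tin protoporphyrin libraries ran from -0.54 to 0.52 and the controls from -0.46 to 0.44. With each library's length and GC trend removed, NPAS2 stood at 0.89 with zinc (adjusted p = 0.0181) and 0.98 with tin protoporphyrin (0.00508). This correction used each gene's longest transcript, 7983 bases for NPAS2, whereas the levels per kb used its principal transcript of 4007 bases. The summed level of the mesenchymal markers was 736 to 830 CPM in the control and 824 to 930 CPM with zinc protoporphyrin. These ranges overlapped. With tin protoporphyrin the sum was 956 to 992 CPM and with HPPE 893 to 921 CPM, both above the control. The largest terms of the sum were FN1 (427 to 619 CPM) and VIM (199 to 283 CPM). The summed level of the noradrenergic markers was lower in the treated libraries, at 5040 to 5320 CPM in the control, 4790 to 4810 with HPPE, 4410 to 4920 with zinc and 4760 to 4940 CPM with tin protoporphyrin. The part of either marker list in the NPAS2 result was not tested. In bulk RNA, fewer cells expressing a gene and less RNA per cell cannot be told apart.

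**Figure D3:**
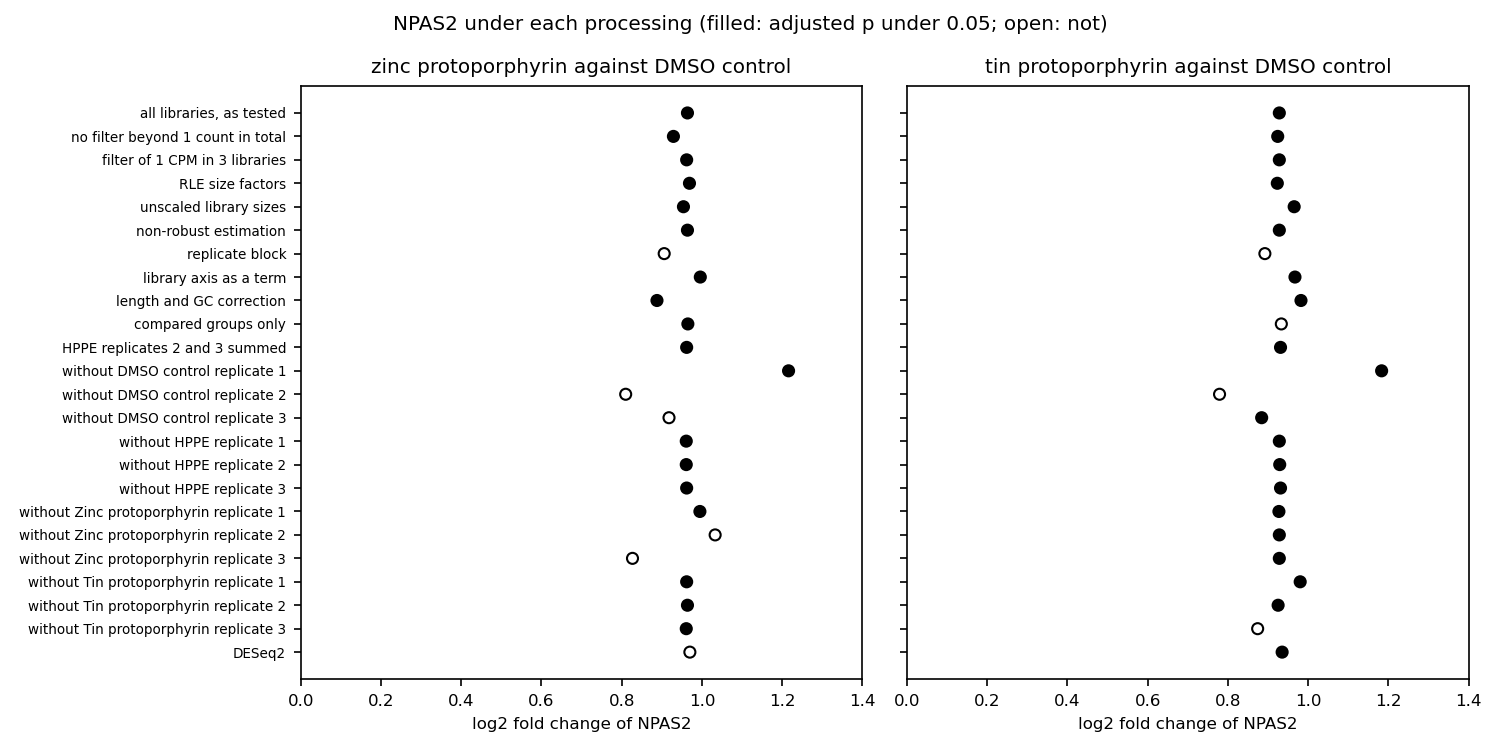
Log2 fold change of NPAS2 against the DMSO control (horizontal axis) with zinc (left) and tin protoporphyrin (right) under each processing setting (rows); filled points have an adjusted p under 0.05. Every point lies between 0.78 and 1.22, and 6 of the 23 alternatives with zinc and 4 of the 23 with tin protoporphyrin are open.

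The promoter of NPAS2 is shown beside that of its paralog CLOCK, since NPAS2 rose and CLOCK did not pass the test. Each sequence is the 250 bases before a RefSeq start site (GRCh38.p14), 5′ to 3′ on the gene's strand, chr2:100819889-100820138 for NPAS2 (plus strand) and chr4:55545933-55546182 for CLOCK (minus strand). Capitals would mark an E-box (CACGTG, the site of the clock activators), a D-box (TTANGTAA, the site of DBP and its relatives, N being any base) or a cyclic AMP response element (TGACGTCA), searched on both strands. Neither sequence holds any of the 3. The NPAS2 stretch is 76.4% G and C.
NPAS2: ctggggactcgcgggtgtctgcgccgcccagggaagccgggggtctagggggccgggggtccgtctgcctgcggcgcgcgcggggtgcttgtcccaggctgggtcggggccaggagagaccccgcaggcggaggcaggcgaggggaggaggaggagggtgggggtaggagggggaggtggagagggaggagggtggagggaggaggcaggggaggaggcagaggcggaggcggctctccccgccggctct
CLOCK: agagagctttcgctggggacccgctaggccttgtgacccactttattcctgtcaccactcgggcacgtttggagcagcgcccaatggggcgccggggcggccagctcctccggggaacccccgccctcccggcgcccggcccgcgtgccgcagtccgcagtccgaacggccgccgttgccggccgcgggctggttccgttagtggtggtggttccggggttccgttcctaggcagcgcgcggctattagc

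The 3 genes closest to NPAS2 over the 12 libraries, by Pearson correlation of log2 CPM among 15843 other genes with a mean of at least 1 CPM, were LINC01735 (r = 0.94), SLC7A6 (0.94) and SIRPG-AS1 (0.93). The libraries share depth and the common axis, so these values are descriptions. SLC7A6, which encodes an amino acid transporter chain, had means of 31.8 CPM in the control, 35.6 with HPPE, 39.8 with zinc and 39.6 CPM with tin protoporphyrin. LINC01735 and SIRPG-AS1 are noncoding, and the latter is an antisense gene whose reads cannot be told from those of SIRPG if strand was not used in counting. The control means of LINC01735 and SIRPG-AS1 were 1.48 and 0.264 CPM. The latter lies under the detection limit of every library (0.337 to 2.26 CPM).

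The 3 period genes encode the repressor proteins that pair with the cryptochromes. PER1 (chromosome 17, 8140472 to 8156506, minus strand), an early responder to hormonal and cyclic AMP signals in many cells, was the steadiest of them. It stood at 45.1, 46.5 and 44.7 CPM in the control, 41.4, 40.1 and 45.0 CPM with HPPE, 42.2, 53.6 and 42.0 CPM with zinc and 44.4, 44.0 and 48.0 CPM with tin protoporphyrin. Zinc protoporphyrin replicate 2 was the highest, and each treated group overlapped the control. The log2 fold changes were -0.12 ± 0.10, 0.04 ± 0.11 and -0.005 ± 0.10 for HPPE, zinc and tin protoporphyrin. The 95% intervals of the 3 comparisons together spanned 0.787 to 1.2 times the control level, the narrowest span of the 10 genes.

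PER2 (chromosome 2, 238244038 to 238290102, minus strand) was the most uneven of the period genes. It stood at 12.3, 13.1 and 5.1 CPM in the control, 12.1, 9.44 and 9.5 CPM with HPPE, 18.8, 13.5 and 13.6 CPM with zinc protoporphyrin and 8.32, 12.6 and 10.2 CPM with tin protoporphyrin. All 3 zinc protoporphyrin libraries lay above all 3 controls, and the low control, DMSO replicate 3, rested on 8 counts (2.2 to 10.1 CPM by exact Poisson interval). The log2 fold change with zinc protoporphyrin was 0.30 ± 0.22 (-0.17 to 0.76, adjusted p = 0.491), and 0.16 without that control library. With HPPE it was -0.14 ± 0.22 and with tin protoporphyrin -0.16 ± 0.21, neither of which passed the test.

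PER3 (chromosome 1, 7784320 to 7845177, plus strand) stood at 30.2, 30.1 and 25.5 CPM in the control and at 31.6, 34.4 and 37.3 CPM with zinc protoporphyrin. These groups did not overlap, yet the log2 fold change of 0.26 ± 0.12 had an adjusted p of 0.233 (unadjusted 0.0359). HPPE gave 30.0, 32.0 and 25.6 CPM and tin protoporphyrin 29.2, 33.1 and 29.6 CPM, with log2 fold changes of 0.02 ± 0.11 and 0.07 ± 0.11. PER2 and PER3 had the highest correlation of the 45 pairs of clock genes over the 12 libraries (r = 0.67, Pearson, log2 CPM), and PER2 and BHLHE40 the lowest (-0.71); the pairs share depth and the common axis, and the latter rests on a gene near the detection limit.

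The cryptochromes encode the stable arm of the PER and CRY repressor complex. CRY1 (chromosome 12, 106991364 to 107093829, minus strand) stood at 22, 17.2 and 19.1 CPM in the control, 18.9, 21.7 and 21.5 CPM with HPPE, 18.1, 23.2 and 19.2 CPM with zinc and 26.8, 19.1 and 18.9 CPM with tin protoporphyrin. All treated groups overlapped the control, and tin protoporphyrin replicate 1 was the highest library. Its log2 fold changes were 0.08 ± 0.16, 0.09 ± 0.17 and 0.15 ± 0.16 in that order of compounds, and without tin protoporphyrin replicate 1 the last was -0.03. CRY2 (chromosome 11, 45847118 to 45883248, plus strand) held 16.3, 14.8 and 15.3 CPM in the control, 14.5, 13.9 and 13.3 CPM with HPPE, 13.6, 13.5 and 11.8 CPM with zinc and 15.1, 11.7 and 14.5 CPM with tin protoporphyrin. The HPPE and zinc protoporphyrin libraries lay below every control, by little. No comparison passed the test. The log2 fold changes were -0.15 ± 0.14, -0.28 ± 0.15 and -0.17 ± 0.14 (adjusted p = 0.616, 0.307 and 0.608).

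NR1D1 and NR1D2 are the members whose proteins use heme as a ligand. NR1D2 (chromosome 3, 23945260 to 23980618, plus strand) was the most abundant clock gene, at 116, 92.1 and 84.2 CPM in the control. It stood at 82.9, 85.4 and 84.2 CPM with HPPE and at 74.5, 95.8 and 82.4 CPM with tin protoporphyrin. With zinc protoporphyrin it stood at 91.9, 110 and 109 CPM, above every HPPE library but overlapping tin protoporphyrin and the control, in which replicate 1 was the highest library of all 12. The log2 fold changes against the control were -0.24 ± 0.11 with HPPE (adjusted p = 0.281), 0.09 ± 0.11 with zinc (0.72) and -0.24 ± 0.11 with tin protoporphyrin (0.332). Without DMSO replicate 1 the HPPE and tin protoporphyrin values were -0.09 and -0.08. HPPE and zinc protoporphyrin libraries did not overlap, as was so for 36.7% of all genes tested. The log2 fold change was -0.33 ± 0.11 (-0.56 to -0.09, adjusted p = 0.0641), and 8 of 23 alternatives called this difference (adjusted p from 3.44e-05 to 0.268). Among these were the fits without DMSO replicate 1 (0.0405), DMSO replicate 3 (0.0419), tin protoporphyrin replicate 1 (0.0389) or tin protoporphyrin replicate 2 (0.0214).

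NR1D1 (chromosome 17, 40092787 to 40100725, minus strand) was scarcer, at 6.75, 5.15 and 8.3 CPM in the control, 5.63, 6.29 and 3.8 CPM with HPPE, 3.01, 7.46 and 6.38 CPM with zinc and 6.56, 6.3 and 6.12 CPM with tin protoporphyrin. All groups overlapped; the lowest value, in zinc protoporphyrin replicate 1, rested on 4 counts. The log2 fold changes were -0.17 ± 0.23, 0.05 ± 0.24 and 0.02 ± 0.22 (adjusted p = 0.744, 0.939 and 0.986). It lies opposite THRA, the thyroid hormone receptor alpha gene, with 263 shared exonic bases or 9.5% of its exonic sequence. The strand setting of the counting is not given in the sources used here, so reads of that stretch cannot be told apart. THRA, named after its values were seen, stood at 53.5 to 93.7 CPM over all libraries and fell with HPPE (log2 fold change -0.51 ± 0.11, adjusted p = 0.00988; mean 84.2 CPM in the control and 60.1 CPM treated).

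The promoters of NR1D2 and PER3 are printed because, among the members, these windows held a D-box and no annotated exon; they were picked after the results were seen. They are the 250 bases before the start at chr3:23945871-23946120 for NR1D2 (its downstream start, plus strand) and at chr1:7784041-7784290 for PER3 (plus strand), with the same marking in capitals. NR1D2 holds a pair of E-boxes, whose first bases lie 155 and 105 bases before the start, and 1 D-box at 194 bases before it. PER3 holds 1 D-box, which begins 177 bases before the start.
NR1D2: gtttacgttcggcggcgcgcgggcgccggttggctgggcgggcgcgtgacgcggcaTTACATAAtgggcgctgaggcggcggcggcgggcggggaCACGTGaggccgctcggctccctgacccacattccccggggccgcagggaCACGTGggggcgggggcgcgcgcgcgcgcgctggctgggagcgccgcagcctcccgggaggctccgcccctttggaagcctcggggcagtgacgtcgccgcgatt
PER3: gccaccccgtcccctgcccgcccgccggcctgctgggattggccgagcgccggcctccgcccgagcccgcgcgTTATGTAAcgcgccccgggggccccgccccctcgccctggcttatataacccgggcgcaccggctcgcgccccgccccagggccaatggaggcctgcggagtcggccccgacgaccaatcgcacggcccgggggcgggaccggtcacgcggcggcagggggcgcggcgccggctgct

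An E-box was found in 3 of the 13 promoter windows of the 10 genes (those of PER1, NR1D2 and BHLHE40), a D-box in 2 and the cyclic AMP response element in 0. Of all 35114 RefSeq windows of the same length, 6.35%, 1.98% and 1.65% held them. The windows of BHLHE40 and CRY1 lay wholly within annotated exons (250 bases). Those of NR1D1, DBP and PER1 held 136, 59 and 31 exonic bases. For CRY2, PER3 and NR1D2 a single window held exonic bases, 126, 57 and 26 in that order. A match is a string of letters and not a measured binding site, and the windows leave out more distant elements.

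BHLHE40 and DBP stand at the output and added repression of the loop. BHLHE40 (chromosome 3, 4979116 to 4985323, plus strand), a repressor that competes for E-boxes and is induced by hypoxia in many cells, was close to the detection limit, with 0 to 24 counts per library. It stood at 1.06, 0.528 and 1.91 CPM in the control, 1.25, 2.8 and 2.22 CPM with HPPE, 0, 1.18 and 0.842 CPM with zinc and 1.29, 1.35 and 1.95 CPM with tin protoporphyrin. The zero, in zinc protoporphyrin replicate 1, allows up to 2.26 CPM. The control overlapped every treated group. The HPPE values lay above the zinc protoporphyrin values as counted, although both limits of that zero reach into the HPPE range. The log2 fold change with HPPE was 1.17 ± 0.48 (0.15 to 2.19, adjusted p = 0.213), the widest interval of any member together with those of BHLHE40 in the other comparisons. With zinc and tin protoporphyrin it was 0.01 ± 0.55 and 0.72 ± 0.49.

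DBP (chromosome 19, 48630030 to 48637438, minus strand), the transcription factor that reads out the clock through D-boxes, held 5.03, 6.2 and 5.74 CPM in the control and 3.63, 5.48 and 4.12 CPM with HPPE. Zinc protoporphyrin gave 4.52, 4.71 and 6.38 CPM and tin protoporphyrin 6.45, 5.96 and 5.98 CPM. All treated groups overlapped the control. HPPE lay below tin protoporphyrin without overlap, and 19.9% of all genes tested did not overlap in that comparison. Against the control the log2 fold changes were -0.33 ± 0.22, -0.05 ± 0.22 and 0.12 ± 0.20 (adjusted p = 0.467, 0.956 and 0.845). SPHK2 overlaps 10.1% of the exonic bases of DBP on the opposite strand and stood at 28.8 to 47.4 CPM. The partner genes on the opposite strand of members other than NR1D1 and DBP stayed at or under 0.638 CPM.

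Counted over the list, HPPE against the control called 0 of the 10 clock genes, against 4.04% of all genes tested. By edgeR 2 of the 10, NR1D2 and BHLHE40, had an unadjusted p under 0.05, against 17.7% of all genes tested, and DESeq2 called 0. The zinc protoporphyrin comparison called 1 of 10 higher and 0 lower against 2.25% of all genes, and tin protoporphyrin 1 of 10 higher and 0 lower against 2.28%; DESeq2 called 0 and 1. Median log2 fold changes of the 10 genes were -0.13 with HPPE, 0.07 with zinc and 0.04 with tin protoporphyrin, beside 0.02, -0.004 and 0.01 over all genes tested. Of the 10 genes, 4 had a positive log2 fold change with HPPE, 8 with zinc and 6 with tin protoporphyrin. The libraries of 1, 4 and 1 of the 10 genes did not overlap the control, beside 21.4%, 22% and 17.9% of all genes tested.

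**Figure D4:**
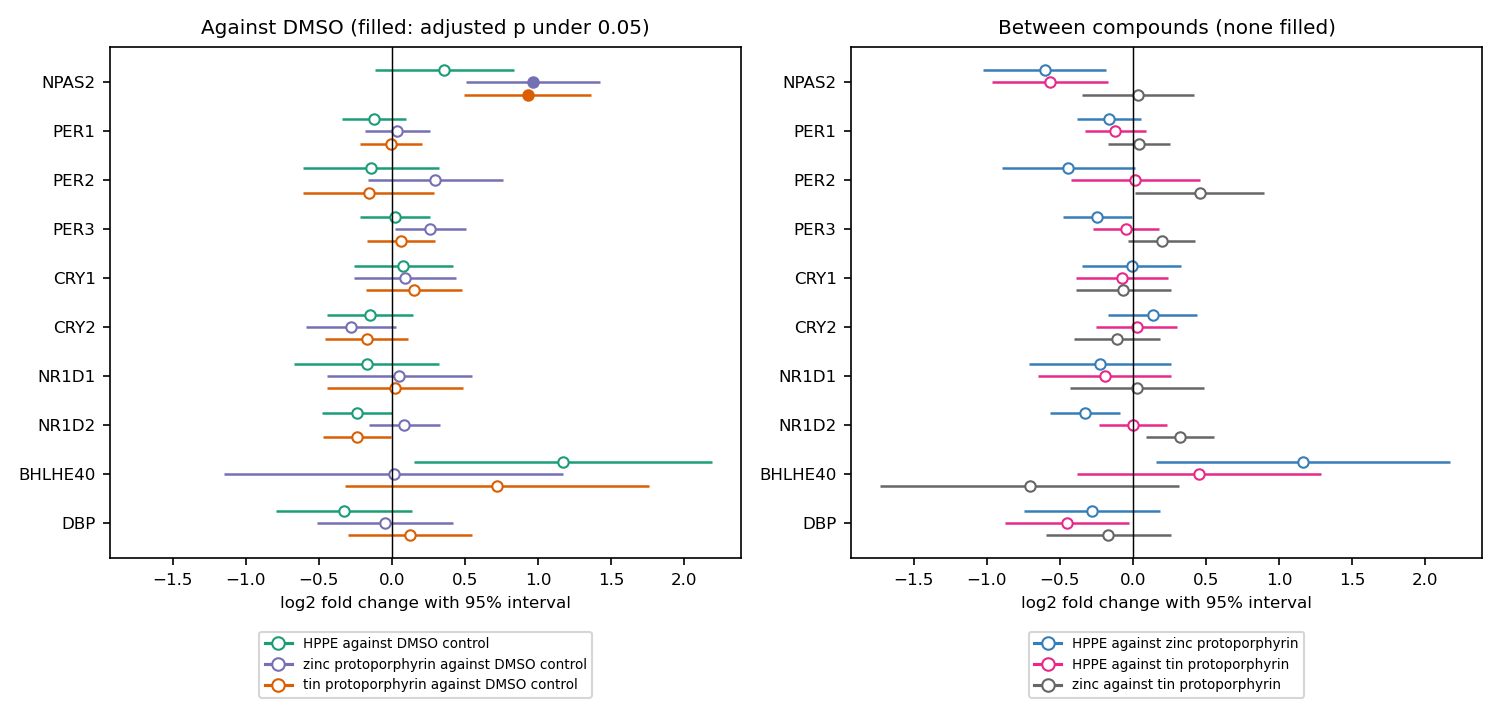
Log2 fold changes (horizontal axes) of the 10 clock genes with 95% intervals, for the 3 compounds against DMSO (left) and between compounds (right); filled points have an adjusted p under 0.05. Only the NPAS2 points of zinc (0.96) and tin protoporphyrin (0.93) are filled, and the BHLHE40 intervals are the widest.

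Zinc and tin protoporphyrin, which differ in the metal at the centre of the ring, were compared at the same dose and time. None of the 10 clock genes differed by edgeR (0 called, beside 0.00611% of all genes tested), 2 had an unadjusted p under 0.05, beside 13.3% of all genes, and DESeq2 called 0. The libraries of 2 of the 10 did not overlap, beside 12.9% of all genes. For NPAS2 the log2 difference, zinc minus tin protoporphyrin, was 0.04 ± 0.18 with a 95% interval of -0.35 to 0.42, so differences of up to that size in either direction remained possible. NR1D2 had the smallest p, with 103.5 ± 10.1 CPM with zinc and 84.3 ± 10.8 CPM with tin protoporphyrin (log2 difference 0.32 ± 0.11, interval 0.09 to 0.56, adjusted p = 0.353). This difference was called in 2 of 23 alternatives, among them the fit without tin protoporphyrin replicate 2 (0.44, adjusted p = 0.025). PER2 was 0.46 ± 0.21 higher with zinc protoporphyrin on the log2 scale (0.02 to 0.90, adjusted p = 0.369), with no overlap between the libraries of both groups. The other 7 genes had unadjusted p-values above 0.05 in this comparison, and a miss of the threshold does not show that the metals act alike.

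HPPE was also set against each protoporphyrin, and again 0 of the 10 genes were called. Against zinc protoporphyrin, where 12.7% of all genes tested were called, 4 of the 10 genes (NPAS2, PER3, NR1D2 and BHLHE40) had an unadjusted p under 0.05 by edgeR, beside 32.2% of all genes, and DESeq2 called 0. The libraries of 3 of the 10 did not overlap, beside 36.7% of all genes. The smallest adjusted p-values were those of NPAS2 (log2 fold change -0.61 ± 0.20, adjusted p = 0.055) and NR1D2 (0.0641). Of 23 alternatives 5 called the NPAS2 difference, 3 of them fits that left out a library of another group. These left out DMSO replicate 3, tin protoporphyrin replicate 1 or tin protoporphyrin replicate 2 (adjusted p = 0.0485, 0.0457 and 0.0387). With each library's length and GC trend removed the NPAS2 difference was smallest, at -0.41 (adjusted p = 0.161). The HPPE libraries leaned toward short transcripts (correlations of -0.47 to -0.1) and the zinc protoporphyrin libraries toward long transcripts (0.22 to 0.57). Against tin protoporphyrin 1.45% of all genes were called and 2 of the 10 clock genes, NPAS2 and DBP, had an unadjusted p under 0.05 by edgeR, beside 13.1% of all genes, with 0 called by DESeq2. The libraries of 2 of the 10 did not overlap, beside 19.9% of all genes. NPAS2 was -0.57 ± 0.19 (-0.97 to -0.17, adjusted p = 0.181), and all 3 HPPE libraries lay below all 3 tin protoporphyrin libraries. DBP was -0.45 ± 0.20 (-0.88 to -0.02, adjusted p = 0.353).

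A further list of 26 clock genes, of which 25 were tested, held the partners, receptors, kinases, ligases and outputs of the loop. Against the control, edgeR called 0 with HPPE, 1 with zinc (RORB, higher) and 0 with tin protoporphyrin, and DESeq2 gave the same counts. By edgeR 4.04%, 2.25% and 2.28% of all genes tested were called in these comparisons. At an unadjusted p under 0.05 by edgeR the counts were 4, 2 and 5 of 25, beside 17.7%, 18.6% and 14.7% of all genes tested. Median log2 fold changes of the 25 were -0.02, 0.09 and 0.01 in that order. Between compounds edgeR called 0 of the 25. The shares of all genes were 12.7% (HPPE against zinc), 1.45% (HPPE against tin) and 0.00611% (zinc against tin protoporphyrin). DESeq2 called 1, the corepressor gene NCOR1, for HPPE against zinc protoporphyrin (edgeR adjusted p = 0.0543), where it called 12.2% of all genes. BMAL1, the partner of NPAS2, and CLOCK, the paralog of NPAS2, did not pass the test with any compound. BMAL1 stood at 33.6 ± 3.19 CPM in the control, 34.5 ± 3.05 with HPPE, 40.2 ± 3.69 with zinc and 40.9 ± 3.25 CPM with tin protoporphyrin (log2 fold changes 0.02 ± 0.11, 0.20 ± 0.11 and 0.25 ± 0.11, adjusted p = 0.954, 0.354 and 0.291). All 3 tin protoporphyrin libraries, at 43.5, 37.2 and 41.9 CPM, lay above the controls at 34.8, 36.0 and 30.0 CPM. CLOCK stood at 84.8 ± 12.1, 82.0 ± 11.3, 97.4 ± 11.4 and 84.3 ± 14.8 CPM in the same order of groups and overlapped between all of them.

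Of the ROR receptors, which compete with NR1D1 and NR1D2, RORB rose with zinc protoporphyrin. It stood at 251, 220 and 184 CPM in the control and 298, 310 and 341 CPM with zinc protoporphyrin (log2 fold change 0.52 ± 0.13, adjusted p = 0.0388), a call that 10 of 23 alternatives lost. In 8 of these 1 library was left out: DMSO replicate 2 or 3, HPPE replicate 2 or 3, any of the zinc protoporphyrin replicates, or tin protoporphyrin replicate 3 (adjusted p from 0.0558 to 0.237). The test of any difference among the 4 groups did not call RORB (adjusted p = 0.064). With the length and GC trend removed, the log2 fold change with zinc protoporphyrin was lowest, at 0.375 (adjusted p = 0.000414). HPPE gave 314, 268 and 259 CPM and tin protoporphyrin 238, 329 and 268 CPM, and neither passed the test (adjusted p = 0.145 and 0.211). RORA stood at 14.4 ± 3.09 CPM in the control and at 15.5 ± 2.6, 18.1 ± 2.72 and 17.3 ± 3.31 CPM with HPPE, zinc and tin protoporphyrin, with no call. NFIL3, the repressor that competes with DBP at D-boxes, was named after its values were seen. It stood at 10.1, 13.7 and 13.4 CPM in the control and, without overlap, at 16.8, 17.2 and 17.4 CPM with HPPE and 16.4, 15.7 and 18.4 CPM with tin protoporphyrin. Neither passed the test (log2 fold changes 0.50 ± 0.15 and 0.47 ± 0.15, adjusted p = 0.0796 and 0.125). PPARGC1A, a coactivator of the RORs, had at most 1 count in any library and was not tested.

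Of the genes of heme handling, HMOX1, which encodes the inducible heme oxygenase that breaks heme down, rose with HPPE (351.5 ± 17.6 CPM) and zinc protoporphyrin (47.0 ± 19.2 CPM) from 5.9 ± 1.57 CPM in the control, and was not called with tin protoporphyrin (7.38 ± 0.529 CPM; adjusted p = 2.62e-11, 4.05e-06 and 0.487). ALAS1, the first enzyme of heme synthesis, whose gene NPAS2 and BMAL1 can activate, fell with zinc protoporphyrin, by 1.08 ± 0.14 on the log2 scale (27.3 ± 4.15 CPM in the control, 12.5 ± 0.59 CPM treated, adjusted p = 0.000329). With tin protoporphyrin it stood at 22.4 ± 1.71 CPM (log2 fold change -0.23 ± 0.12, adjusted p = 0.4) and with HPPE at 33.9 ± 2.75 CPM (0.36 ± 0.12, adjusted p = 0.107), neither of which was called against the control. ALAS1 was higher with HPPE than with zinc protoporphyrin (log2 fold change 1.45 ± 0.13, adjusted p = 5.6e-06) and tin protoporphyrin (0.59 ± 0.11, adjusted p = 0.0111).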

How the data were processed

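RNA from 12 libraries of SH-SY5Y cells was sequenced as mRNA, with 3 libraries per group. The authors deposited whole-number read counts per gene, not normalized. The submitters' processing notes name fastp 0.21.1, STAR 2.7.7a, featureCounts and GRCh38; the annotation and strand setting are not given in the sources used here. Of 60710 rows, 60481 matched a symbol, and 0 columns fell outside the samples. Genes were kept with filterByExpr by group (16366 genes, 99.6% of counts) and fitted in 1 model over the 4 groups with edgeR 4.0.16 in R 4.3.3 (TMM, robust quasi-likelihood); 6 comparisons and a test of any difference were adjusted by Benjamini-Hochberg over all genes. Errors of log2 fold changes are SE from the F statistic; errors of CPM are SD (n = 3). The biological coefficient of variation was 0.0913. The procedure was tested on simulated counts drawn without the common library axis, so that test cannot show how sound the calls are in these data. Promoters came from RefSeq (GRCh38.p14) and positions from GENCODE 29.

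The members, gene lists and alternatives were chosen with earlier results of these data known, and ranges for RORB and other listed genes were added later. Other listed genes enter as counts, and a few are not reported here. Named genes were the 10 members, listed clock genes that were called plus BMAL1, CLOCK and RORA, HMOX1 and ALAS1 for heme, and the 3 genes most correlated with a called member; NFIL3, PPARGC1A and the overlapping genes THRA and SPHK2 were chosen after their values were seen. Alternatives were other filters, size factors and estimation, DESeq2 1.42.0, the compared groups only, the replicate number as a block, each library left out, a library axis, a length and GC correction, and HPPE replicates 2 and 3 summed. The latter differed by more than sampling noise (chi-square per degree of freedom 1.11, against 1.49 to 17.4 in other pairs) and were kept apart.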

Additional observations from a re-analysis of the deposited data

How the results depend on the processing

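Of 1378 values of single clock genes under alternatives, 0 turned direction with a call on either side, 10 lost a call, 21 gained one and 1347 did neither. Among the 60 pairs of gene and comparison, 22 changed sign under some setting, none of them called. Counts of called clock genes moved as follows. Under the library axis, computed from the same deviations that set the spread, which makes that fit's spread too small, counts were 1 (HPPE against DMSO), 2 (zinc protoporphyrin against DMSO), 2 (tin protoporphyrin against DMSO), 4 (HPPE against zinc protoporphyrin), 1 (HPPE against tin protoporphyrin), 1 (zinc against tin protoporphyrin) and 2 (any difference), while 13.5% to 42.5% of all genes were called. With the compared groups only, counts were 0 for tin protoporphyrin against DMSO and 2 for HPPE against zinc protoporphyrin. Of all genes, 0.856% and 27.5% were called in these fits. The length and GC correction gave 1 for HPPE against zinc protoporphyrin and 2 for any difference, beside 14.6% and 13.6% of all genes. Dropping the filter gave 1 and 2 for the same comparisons, beside 8.26% and 8.06% of all genes. DESeq2 gave 0 for zinc protoporphyrin against DMSO (NPAS2 adjusted p = 0.0523), beside 2.15% of all genes. The causes were not tested. Leaving out 1 library at a time, counts ran from 0 to 1 for zinc against DMSO, tin against DMSO and zinc against tin protoporphyrin. The shares of all genes called ran from 0.423% to 4.44%, 0.858% to 3.71% and 0.00588% to 8.59% in that order. Counts ran from 0 to 2 for HPPE against zinc protoporphyrin and for any difference. There the shares ran from 1.03% to 20.8% and from 2.51% to 19.8% of all genes. For any difference the count was 0 without DMSO replicate 2 or HPPE replicate 2 (2.79% and 2.51% of all genes). It was 2 without tin protoporphyrin replicate 2 (19.8% of all genes). Apart from the replicate block described next, the other settings kept the count in each comparison.

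Same-numbered libraries of different groups deviated together in 5 of 18 pairs (correlation over 0.1, range -0.683 to 0.517), and 3 of 12 libraries correlated best with their own number, so the numbers were not taken to pair the libraries. With the replicate block the counts were 0 for zinc protoporphyrin against DMSO, 0 for tin protoporphyrin against DMSO and 0 for any difference. Of all genes, 0.813%, 1.28% and 2.79% were called. The adjusted p-values of NPAS2 were 0.093 and 0.0604 in the first 2 comparisons. Depth limits BHLHE40, with at most 24 counts, and NPAS2, NR1D1 and DBP in the shallow libraries.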
